A study of Mus musculus with 8 samples.

Results

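The unfolded protein response and the integrated stress response were examined in mouse esophagi through 10 genes taken by symbol from a list of endoplasmic reticulum (ER) stress and ATF4 target genes. The genes were Hspa5, Pdia4, Sdf2l1, Dnajb9, Herpud1, Xbp1, Atf4, Ddit3, Trib3 and Asns. All 10 had counts in each of 8 libraries and all 10 passed the filter on low counts, out of 14864 genes tested and 32849 gene symbols listed. The MGL KO group held 4 libraries from mice without Mgll, the gene of monoacylglycerol lipase (MGL), which breaks down the endocannabinoid 2-arachidonoylglycerol, and the WT group held 4 libraries from wild-type mice. The labels give no treatment for either group, so the comparison was of the resting tissue. Per the study's methods the deletion was global, the MGL KO mice were bred in-house with WT littermates, and male and female mice of 8 to 12 weeks were used in the experiments, while the sex and age behind each library were not given in the sources used here. RNA came from frozen esophagus tissue that was not separated into layers or cell types, so fewer cells of a type and less RNA per cell cannot be told apart.

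Cells answer misfolded proteins in the ER with the unfolded protein response. The chaperone BiP, made from Hspa5, holds the sensors IRE1, PERK and ATF6 in check, IRE1 splices Xbp1 RNA into the message of an active transcription factor, and ATF6 and XBP1 raise chaperones, folding enzymes and degradation factors. PERK and the related kinases GCN2, PKR and HRI phosphorylate eIF2α, which slows translation while the Atf4 message is translated more, and this shared arm is the integrated stress response. ATF4 and its partner CHOP, made from Ddit3, then raise genes of amino acid supply such as Asns and feedback genes such as Trib3. The response is prominent in cells that secrete much protein, such as plasma cells. Counts per gene show neither the splicing of Xbp1 nor the translation of Atf4, which are the steps that activate these factors.

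The DNA motifs known for the 2 arms were looked for in the promoters of the 10 genes, to show which members carry the letters of either arm. RefSeq promoters, from 250 bases before to 50 bases after a start site, were matched to each member by symbol, 1 promoter per gene, and the position of every one was found again by an exact match in GRCm39. The ER stress response element (ERSE, bound by ATF6), CCAAT and CCACG separated by 9 bases, was found in 1 member and in 0.119% of all 32851 promoters. Its variant ERSE-II, ATTGG and CCACG separated by 1 base, was found in 1 member and in 0.037% of all promoters. The core of the unfolded protein response element, TGACGTG, was found in 1 member and in 2.012% of all promoters, and the C/EBP-ATF response element (CARE, bound by ATF4), searched as TGATGNAA, in 3 members and in 3.969% of all promoters. Both strands were searched, and no matches of different motifs overlapped in a member. The 3 promoters with a match upstream of the start site are shown as the 160 bases that end at the start site, 5′ to 3′ on the strand of the gene, with every match in capitals.
Hspa5, chr2:34661942-34662101, plus strand: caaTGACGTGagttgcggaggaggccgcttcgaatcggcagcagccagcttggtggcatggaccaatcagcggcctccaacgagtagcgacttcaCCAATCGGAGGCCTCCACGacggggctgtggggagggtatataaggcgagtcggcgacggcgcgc
Herpud1, chr8:95112897-95113056, plus strand: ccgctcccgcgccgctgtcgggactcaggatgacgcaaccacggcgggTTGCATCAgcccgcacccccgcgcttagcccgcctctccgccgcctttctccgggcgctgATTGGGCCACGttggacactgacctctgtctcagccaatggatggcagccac
Asns, chr6:7693210-7693369, minus strand: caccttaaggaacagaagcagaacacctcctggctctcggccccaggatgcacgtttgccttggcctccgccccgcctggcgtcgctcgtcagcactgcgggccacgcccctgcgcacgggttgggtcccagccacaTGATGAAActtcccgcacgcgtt

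Hspa5 held the core element from -157 to -151 and the ERSE from -65 to -47, counted back from the start site. Herpud1 held the CARE on the opposite strand from -112 to -105 and ERSE-II from -52 to -42, so it was the member with a motif of each arm. Asns held the CARE from -23 to -16, and Trib3 held it on the opposite strand from 14 to 21 bases after the start site. The letters were not found in the windows of Xbp1, Atf4, Ddit3, Dnajb9, Pdia4 and Sdf2l1. In GENCODE release M39 the Hspa5 window lay for 120 of its 160 bases in an exon of other transcripts of the gene and for 0 bases in an exon of the canonical transcript. The Herpud1 window lay for 35 bases in an exon, and the Asns window lay wholly in an exon of a canonical transcript that starts further upstream. These matches are descriptions of the letters and not of binding. The motifs were already known for these arms, so finding them in members is not an independent observation.

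The libraries held between 13479069 and 17090152 counts. Levels are given as normalized CPM, counts scaled to a common library size with TMM factors. Log2 fold changes (MGL KO minus WT) and their tests came from edgeR's quasi-likelihood fit, with p-values adjusted over all tested genes by the Benjamini-Hochberg method. The targeted gene checked the labels, as Mgll was at 13.7 ± 1.54 normalized CPM (SD, n = 4) in MGL KO and 81.2 ± 9.97 in WT with no overlap. Squamous keratins and skeletal muscle genes, which mark the mouse esophagus, were present in every library. The markers of skeletal muscle summed to between 43313 and 106124 normalized CPM, and those of differentiated squamous epithelium to between 2295 and 15983. The labels number the samples of each group without naming the animals, and the study counts them as esophagi, so p-values measure the spread between these libraries.

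Before the results, 3 libraries have to be named because they stood apart. WT 1 was rich in plasma cell RNA, with Ighm (the heavy chain of IgM) at 3821 normalized CPM against at most 40.0 elsewhere, and immunoglobulin genes took 0.686% of its counts. MGL KO 4 held airway RNA, with Bpifa1 at 2568 and Scgb1a1 (both secreted by airway epithelium) at 2222 normalized CPM against at most 18.9 for either gene elsewhere, and it also held IgA, with Igha at 436.7 normalized CPM and 0.101% of its counts on immunoglobulin genes. In the remaining 6 libraries this share lay between 0.0019% and 0.0105%. MGL KO 2 had the lowest sum of differentiated squamous markers and the highest sum of skeletal muscle markers. It was also the library with Cdh16 at 12.3 and Pax8 at 3.88 normalized CPM, genes that reached at most 0.171 in the others, with Hoxb9 at 5.69 against at most 0.0652, and with H2-Ea at 7.04 against 0 counts in the 7 others. Xist, the transcript of the inactive X chromosome, was at 6.23 there and between 0.18 and 0.79 elsewhere.

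No member passed the adjusted threshold. Of the 10 genes, 0 had an adjusted p under 0.05 in edgeR's quasi-likelihood test, and 0 also did with edgeR's exact test, DESeq2 and limma-voom, beside 7 of 14864 genes (0.0471%) in the quasi-likelihood test. DESeq2 gave no p for Trib3. At an unadjusted p under 0.05 stood 2 members, Atf4 and Asns, both higher in MGL KO, where 8.65% of all tested genes had such a p and 4.35% had it with a higher level in MGL KO. In 1 member, Asns, all MGL KO libraries lay above all WT libraries, against 2.72% of all tested genes. Counted on either side the groups were apart in the same 1 member and in 6.02% of genes. The fold change was positive for 6 members and negative for 4, with a median of 0.17 on the log2 scale, against 7884 positive of 14864 and a median of 0.02 over all tested genes. The median of the members moved with single libraries. Without WT 1, 9 of 10 were positive with a median of 0.53, without MGL KO 4 the median was 0.10 with 7 positive, and without both WT 1 and MGL KO 4 all 10 were positive with a median of 0.24. In the same order, 8206 of 14977, 7376 of 14992 and 7597 of 14800 tested genes were positive. The list as a whole was not tested.

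**Figure D1:**
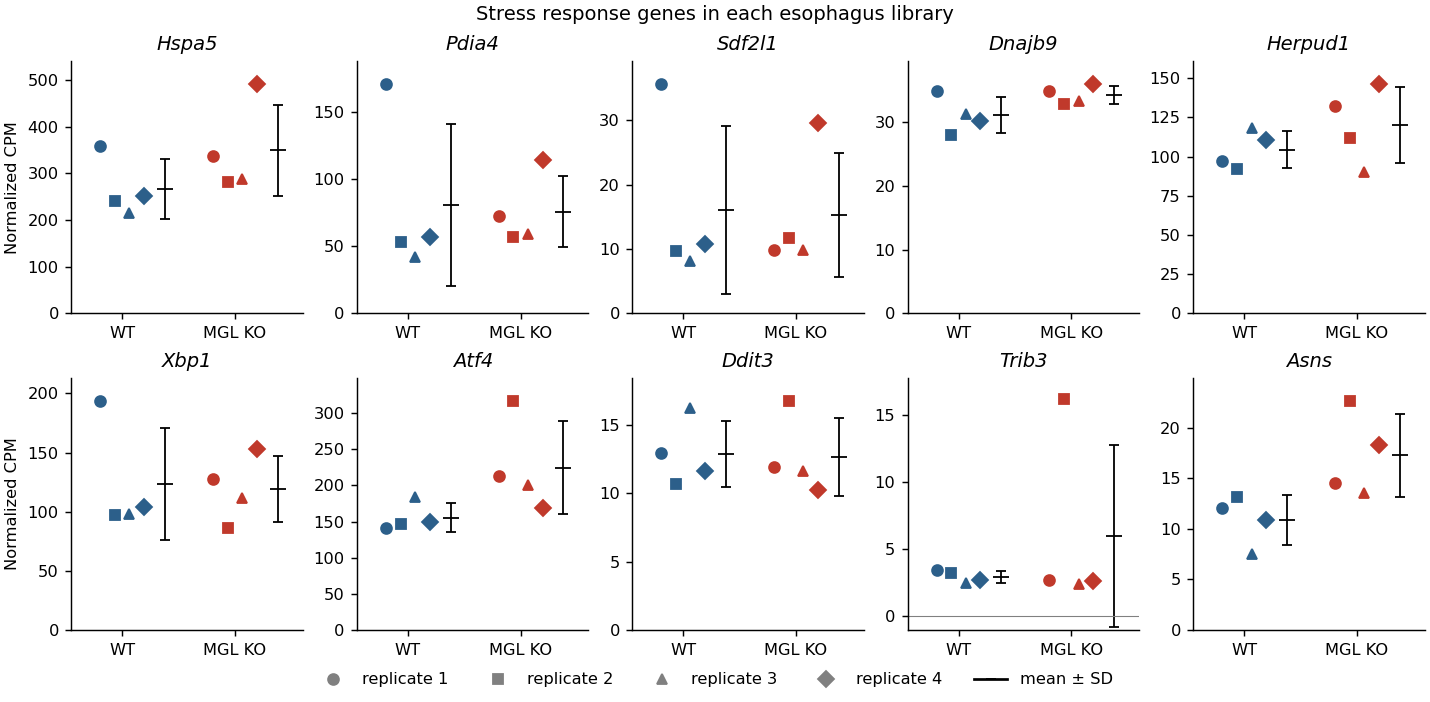
Normalized CPM (y axis, linear, a separate scale per gene) of the 10 genes in each library, WT in blue and MGL KO in red, with a symbol per replicate number and the mean ± SD of each group (n = 4) beside the points. WT 1 (circle) and MGL KO 4 (diamond) are the 2 highest libraries for Hspa5, Pdia4, Sdf2l1, Dnajb9 and Xbp1, MGL KO 2 (square) is the highest for Atf4, Ddit3, Trib3 and Asns, and only Asns has no overlap between the groups.

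Hspa5 encodes BiP, the main chaperone of the ER and the gene most often read as a gauge of ER stress. In MGL KO it stood at 336, 280.5, 288 and 491 normalized CPM in replicates 1 to 4, and in WT at 359, 241, 215 and 251. MGL KO 4 was the highest and WT 1 the next, and the groups overlapped through WT 1 alone. The means were 349 ± 97.9 in MGL KO and 267 ± 63.7 in WT (SD, n = 4), a log2 fold change of 0.39 (SE 0.23, adjusted p = 0.653 by edgeR's quasi-likelihood test, exact permutation p = 0.171, two-sided). Without WT 1 and MGL KO 4, an alternative chosen after seeing the data, the log2 fold change was 0.36 with an SE of 0.13, and the quasi-likelihood fit gave an unadjusted p of 0.0304 and an adjusted p of 0.723. Leaving out MGL KO 4 alone gave 0.18 and leaving out WT 1 alone 0.57.

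Pdia4 encodes ERp72, a protein disulfide isomerase of the ER lumen that forms and reshuffles disulfide bonds. Its levels were 72.8, 57.4, 58.9 and 114 normalized CPM in MGL KO 1 to 4 and 171, 53.2, 42.2 and 57.4 in WT 1 to 4. WT 1 was 2.35 times and MGL KO 4 1.57 times the highest of the other 6 libraries, which lay between 42.2 and 72.8. The log2 fold change over all libraries was -0.09 (SE 0.45, adjusted p = 0.961 by edgeR's quasi-likelihood test, exact permutation p = 0.8286). It turned to 0.58 (SE 0.26, unadjusted p = 0.0543 and adjusted p = 0.748 in the same test) without WT 1, and to 0.31 (SE 0.16) without both WT 1 and MGL KO 4.

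Sdf2l1 encodes a small ER protein that works with the BiP cochaperone complexes. It stood at 9.86, 11.6, 9.87 and 29.6 normalized CPM in MGL KO and at 35.6, 9.70, 8.09 and 10.8 in WT. WT 1 was 3.06 times and MGL KO 4 2.54 times the highest of the other 6, which kept between 8.09 and 11.6, and among the members these were the largest such ratios for both libraries. The log2 fold change was -0.07 (SE 0.55, adjusted p = 0.973 by edgeR's quasi-likelihood test), and it ranged from -0.62 without MGL KO 4 to 0.68 without WT 1. Without both libraries it was 0.13 (SE 0.19).

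Dnajb9 encodes ERdj4, a BiP cochaperone that is a direct target of XBP1. Its levels were 34.8, 32.8, 33.2 and 36.0 normalized CPM in MGL KO and 34.9, 28.0, 31.3 and 30.2 in WT. It was the steadiest member, with a ratio of 1.28 between the highest and lowest library. The log2 fold change was 0.14 (SE 0.10, adjusted p = 0.697 by edgeR's quasi-likelihood test, exact permutation p = 0.114), and the groups overlapped through WT 1 alone. Herpud1, an ER membrane protein that helps to pass misfolded proteins to the proteasome, stood at 132, 112, 90.1 and 146 normalized CPM in MGL KO and at 97.3, 91.9, 118 and 111 in WT. Here WT 1 was not high, the MGL KO libraries spanned the whole WT range, and the log2 fold change was 0.20 (SE 0.16, adjusted p = 0.727 by the same test).

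Xbp1 encodes the transcription factor of the IRE1 arm, which plasma cells need in order to secrete antibody. It was measured at 127, 86.0, 112 and 153 normalized CPM in MGL KO and at 194, 97.3, 98.5 and 104 in WT. WT 1 was again the highest, at 1.52 times the highest of the 6 libraries other than itself and MGL KO 4, and MGL KO 2 was the lowest. The log2 fold change was -0.05 (SE 0.26, adjusted p = 0.965 by edgeR's quasi-likelihood test), and 0.26 (SE 0.19) without WT 1.

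**Figure D2:**
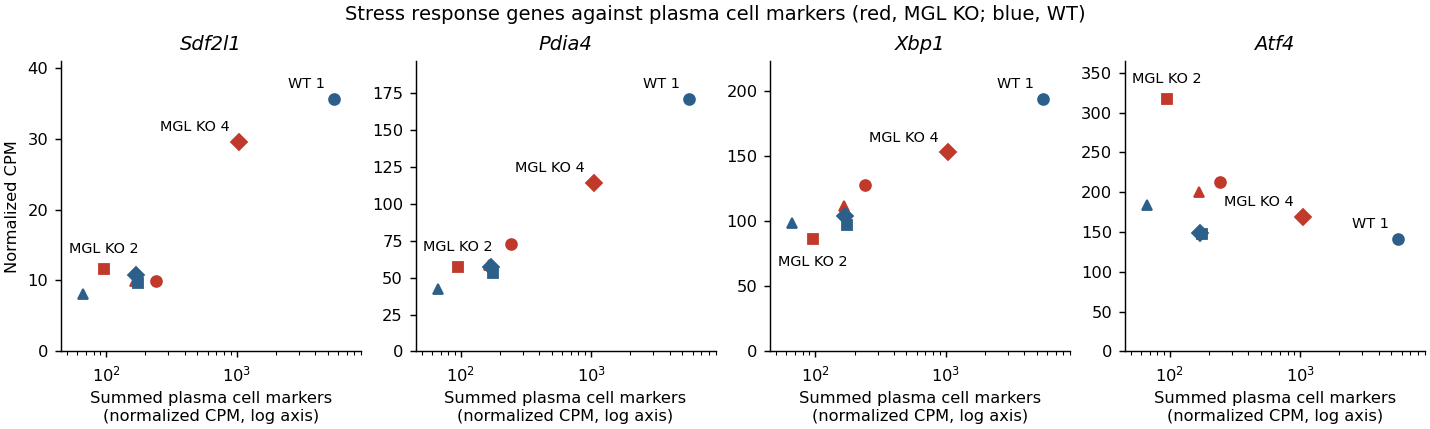
Normalized CPM of Sdf2l1, Pdia4, Xbp1 and Atf4 (y axes, linear) against the summed normalized CPM of 8 plasma cell markers (x axes, logarithmic), a point per library, MGL KO in red and WT in blue. WT 1, at a marker sum of 5611, and MGL KO 4, at 1046, hold the 2 highest levels of Sdf2l1, Pdia4 and Xbp1, while Atf4 is highest in MGL KO 2, at a marker sum of 95.6. In the libraries other than WT 1 and MGL KO 4 most of the sum is Sdc1, which squamous epithelium also expresses.

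Pdia4, Sdf2l1 and Xbp1 were highest in the 2 libraries with the highest sums of plasma cell markers. In 5 of the 10 members, Hspa5, Xbp1, Dnajb9, Pdia4 and Sdf2l1, WT 1 and MGL KO 4 were the 2 highest libraries, against 9.50% of all tested genes, a count chosen after the values were seen. For 2 of the 5 the margin was small, as WT 1 exceeded the highest of the other 6 libraries by 1.07 times in Hspa5 and by 1.00 times in Dnajb9, and Herpud1, at 97.3 in WT 1, was lower there than in WT 3 and WT 4. The 8 plasma cell markers summed to 5611 normalized CPM in WT 1 and 1046 in MGL KO 4, and to between 66.7 and 242 in the other 6. No marker of the list was at 0 in all libraries. Jchain (the joining chain of secreted antibody) was at 704 in WT 1 and 182 in MGL KO 4 and at 15.3 or less elsewhere, and Tnfrsf17 (the plasma cell receptor BCMA) was at 2.34 in WT 1 and 0.393 or less elsewhere. Other markers of the list followed these libraries less closely. Mzb1, a chaperone of antibody assembly, was at 2.51 in WT 1 and 1.97 in MGL KO 4 but also at 2.24 in WT 3. Sdc1, which squamous epithelium also expresses, was at 191 in MGL KO 4 and 138 in WT 1 but at 153 in MGL KO 1, where it made up most of the marker sum of 242. Sdc1 was also most of the sum in the other libraries outside WT 1 and MGL KO 4, as in WT 2 (136 of 176) and MGL KO 3 (131 of 166). Prdm1, the plasma cell factor BLIMP1, was at 11.4 in WT 1 and at 2.53 in MGL KO 4, below the 6.62 of WT 2. Bhlha15, which encodes the secretory cell factor MIST1 and was named after its values were seen, was at 9.20 in WT 1 and at most 0.90 elsewhere. MGL KO 4 also carried the airway RNA, so plasma cells and airway epithelium cannot be told apart there. The part of plasma cells in these levels was not tested.

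Atf4 encodes the transcription factor at the center of the integrated stress response. Its levels were 213, 317, 200 and 168 normalized CPM in MGL KO 1 to 4 and 142, 147, 184 and 149 in WT 1 to 4. MGL KO 2 was the highest library, and the groups overlapped only because WT 3 lay above MGL KO 4. The means were 225 ± 64.4 in MGL KO and 156 ± 19.5 in WT (SD, n = 4), with a log2 fold change of 0.53 (SE 0.20). The unadjusted p of edgeR's quasi-likelihood test was 0.0243, the adjusted p was 0.523 and the exact permutation p was 0.0571, two-sided. Without MGL KO 2 the log2 fold change was 0.32, and over the 22 alternative settings it stayed positive, from 0.32 to 0.65, with adjusted p between 0.142 and 0.923. The unadjusted p rose past the threshold without WT 1 (0.0602), WT 2 (0.0589) or WT 4 (0.0573) in the quasi-likelihood fit.

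Asns encodes asparagine synthetase, a classic ATF4 target that makes asparagine when amino acids run short. It was at 14.5, 22.6, 13.6 and 18.3 normalized CPM in MGL KO and at 12.1, 13.2, 7.49 and 10.8 in WT. The lowest MGL KO library, at 13.6, lay just above the highest WT library, at 13.2. The means were 17.2 ± 4.13 and 10.9 ± 2.47 (SD, n = 4), a ratio of 1.58 and a log2 fold change of 0.66 (SE 0.23). The unadjusted p was 0.0170 and the adjusted p 0.509 in edgeR's quasi-likelihood test, and the exact permutation p was 0.0286, which is the smallest that 4 against 4 libraries can give. Leaving out any 1 library kept the unadjusted p under 0.05 in 8 of 8 fits, with log2 fold changes from 0.50, without MGL KO 2, to 0.76. With limma-voom the log2 fold change was 0.36 and the unadjusted p 0.0565, and without WT 1, MGL KO 4 and MGL KO 2 they were 0.42 and 0.123 in the quasi-likelihood fit. Over the 22 settings the adjusted p lay between 0.232 and 0.923. Asns lies 80.9 Mb and Pdia4 40.9 Mb from Mgll on chromosome 6, the chromosome that carries the deletion.

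Ddit3 encodes CHOP, the factor tied to cell death after lasting ER stress. It was low and level, at 11.9, 16.8, 11.7 and 10.3 normalized CPM in MGL KO and at 12.9, 10.7, 16.2 and 11.7 in WT. MGL KO 2 and WT 3 were the 2 highest libraries, 1 from each group, and the log2 fold change was -0.03 (SE 0.20, adjusted p = 0.973 by edgeR's quasi-likelihood test). Ddit3 overlaps Mars1 and Mbd6 on the opposite strand, and whether strand was used in counting was not given in the sources used here, so a part of its counts could come from those genes.

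Trib3 encodes a pseudokinase induced by ATF4 and CHOP that damps the response. It was at 2.69, 16.2, 2.40 and 2.64 normalized CPM in MGL KO and at 3.40, 3.20, 2.43 and 2.67 in WT. MGL KO 2 held 179 counts against 37 to 61 in the other libraries, and it was 4.75 times the highest of them in normalized CPM. The remaining MGL KO libraries lay within or just below the WT range. The log2 fold change of 1.01 (SE 0.64, adjusted p = 0.671 by edgeR's quasi-likelihood test, exact permutation p = 0.886) became -0.18 (SE 0.23) without MGL KO 2.

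**Figure D3:**
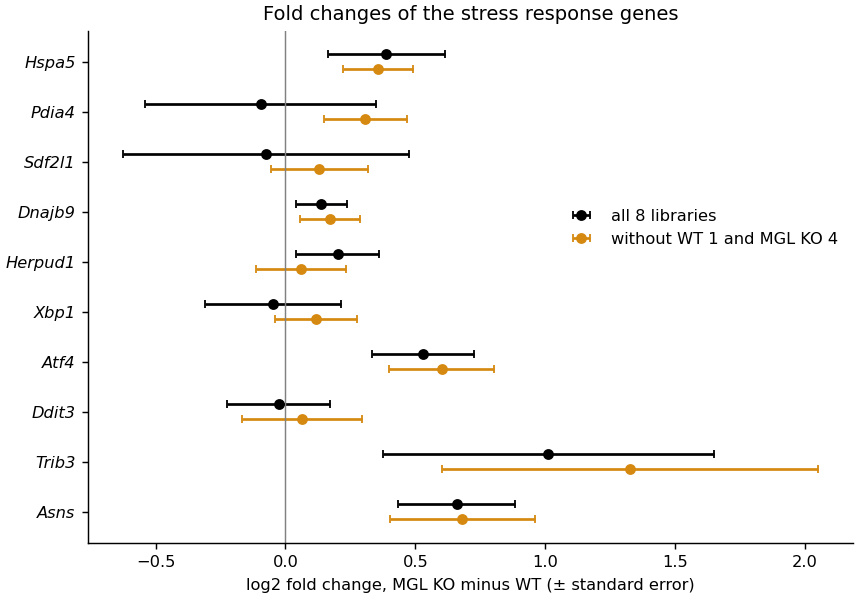
Log2 fold change, MGL KO minus WT, with its standard error (x axis) for each gene, from the quasi-likelihood fit of all 8 libraries (black) and of 6 libraries without WT 1 and MGL KO 4 (orange). Pdia4 moves from -0.09 to 0.31 and Sdf2l1 from -0.07 to 0.13 with narrower errors, whereas Asns keeps 0.66 and 0.68 and Trib3 keeps the widest error.

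MGL KO 2 was the highest library in 4 members, Atf4, Ddit3, Trib3 and Asns, against 27.4% of all tested genes, so that for this library the count was near the background. Its excess over the next library was 1.49 times in Atf4 and 1.24 times in Asns. Aldh1l2, a mitochondrial folate enzyme of the ATF4 program that was named after its values were seen, was at 21.0 normalized CPM in MGL KO 2 and at most 3.91 elsewhere. Ero1a, the oxidase that drives disulfide formation, was at 119.6 there and between 10.3 and 15.8 elsewhere. The part in these levels of whatever set this library apart in Pax8, Cdh16 and muscle genes was not tested.

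Compared per length, as mean normalized CPM per kb of the canonical transcript in WT, the members ran from Atf4 at 89.3 ± 11.2 (SD, n = 4), Xbp1 at 62.7 ± 23.9 and Hspa5 at 53.8 ± 12.9 through Herpud1 at 33.5 ± 3.84 to Pdia4 at 14.7 ± 11.01, Sdf2l1 at 14.4 ± 11.7, Ddit3 at 13.2 ± 2.48 and Dnajb9 at 12.6 ± 1.16, and down to Asns at 2.22 ± 0.504 and Trib3 at 1.40 ± 0.215. The WT ranges of neighbors in this order overlapped except between Hspa5 and Herpud1 and between Dnajb9 and Asns. The levels rest on the length of the canonical transcript, 4.901 kb for Asns, which starts upstream of the Asns promoter window shown. The means of Pdia4 and Sdf2l1 were raised by WT 1, at 31.2 and 32.0, so their place above Ddit3 and Dnajb9 rested on that library. Across the 8 libraries, the genes outside the list whose log2 CPM was most like that of Hspa5 were Slbp (r = 0.99), Dnajc3 (0.99), St8sia6 (0.97), Arf4 (0.96) and Pgm3 (0.96). Among the members Dnajb9 came closest at 0.82, at rank 401 of 14863 genes. For Asns the genes outside the list included Cmtr2 (0.98), Dnajb6 (0.96), Ovol2 (0.96) and Apc (0.95). Among the members Trib3 came closest to Asns at 0.65 (rank 1027), followed by Hspa5 and Atf4 at 0.56 (ranks 1688 and 1702). These correlations are descriptions over 8 libraries that share the same normalization.

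The wider pathway was read from gene lists around the members, beside all tested genes, of which 4.35% had an unadjusted p under 0.05 with a higher level in MGL KO, 7884 of 14864 had a positive fold change and the median was 0.02. The lists were chosen with earlier results of these data known, so their shares are descriptions and not tests. In these lists Derl3, Ppp1r15b, Atf6, Eif2ak3, Cebpb, Cebpg, Phgdh, Shmt2 and Mthfd2 are named after their values were seen. Of 18 further ER chaperones and folding enzymes, 0 passed the adjusted quasi-likelihood test, the exact test or DESeq2, 1 had an unadjusted p under 0.05, 13 had a positive fold change and the median was 0.12. In 12 of the 18, WT 1 and MGL KO 4 were the 2 highest libraries, against 9.50% of all tested genes. MGL KO 4 lay above the median over the libraries in 18 of 18 and WT 1 in 17 of 18. Of the 14864 tested genes, 7314 lay above it in MGL KO 4 and 7472 in WT 1. Txndc5, a disulfide isomerase abundant in plasma cells, was at 261 normalized CPM in WT 1 and between 64.5 and 98.9 elsewhere (log2 fold change -0.56). Ero1b, the second ER oxidase, was at 22.1 in WT 1 and 12.3 in MGL KO 4 and between 6.05 and 8.34 elsewhere (-0.48). Manf, a secreted ER stress protein, had a log2 fold change of 0.35 (SE 0.31), and Ero1a, high in MGL KO 2, of 1.63. Without WT 1 the median of this list was 0.28, all 18 fold changes were positive and 3 had an unadjusted p under 0.05. Of all 14977 genes tested without WT 1, 8206 were positive, 3.51% had such a p with a higher level in MGL KO, and the median was 0.03. The median of the list was 0.02 without MGL KO 4 and 0.049 without WT 3.

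Of 18 genes of ER-associated degradation and translocation 17 were tested, 0 passed the adjusted quasi-likelihood test, the exact test or DESeq2, 2 had an unadjusted p under 0.05, both higher in MGL KO, and the median log2 fold change was 0.08. The larger log2 fold change was that of Selenos (0.40), which encodes a part of the machinery that moves misfolded proteins out of the ER. Edem1, which marks misfolded glycoproteins for degradation and is a target of XBP1, was at 109 normalized CPM in WT 1, 44.3 in MGL KO 4 and between 24.0 and 32.8 in the others (-0.45). Derl3, a channel component tied to secretory cells, did not pass the filter and was at 41.8 in WT 1, 4.05 in MGL KO 4 and at most 0.57 elsewhere. In 10 of the 17 tested genes WT 1 and MGL KO 4 were the 2 highest libraries, against 9.50% of all tested genes. The sign of the median turned with 1 library, to -0.013 without MGL KO 4 and -0.0026 without WT 3, and it was 0.21 without WT 1.

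Of 16 sensors and regulators, 0 passed the adjusted quasi-likelihood test, with 1 passing in DESeq2, beside 137 of 14864 tested genes. In the quasi-likelihood fit 3 had an unadjusted p under 0.05, all higher in MGL KO, and the median was 0.09. Ppp1r15a, which encodes GADD34, the phosphatase subunit that reverses eIF2α phosphorylation, had the largest fold change of this list: 26.7, 33.4, 20.5 and 25.2 normalized CPM in MGL KO against 16.3, 14.8, 17.5 and 15.9 in WT. All MGL KO libraries lay above all WT libraries, with a log2 fold change of 0.71 (SE 0.16, adjusted p = 0.306 by edgeR's quasi-likelihood test). The other 2 were its constitutive relative Ppp1r15b (0.39) and the sensor Atf6 (0.23), while Ern1, the gene of IRE1, was at -0.40 and Eif2ak3, the gene of PERK, at 0.03, neither with an unadjusted p under 0.05. The median of the list was -0.025 without MGL KO 4, 0.030 without WT 3 and 0.17 without WT 1. With limma-voom 1 sensor had an unadjusted p under 0.05 and was lower in MGL KO, beside 882 of 14864 tested genes. The count was also 1 with the skeletal muscle, squamous or plasma cell covariate (1051, 868 and 831 of 14864). It was 1 as well without MGL KO 2 (604 of 15102) and without WT 3 (660 of 15066).

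**Figure D4:**
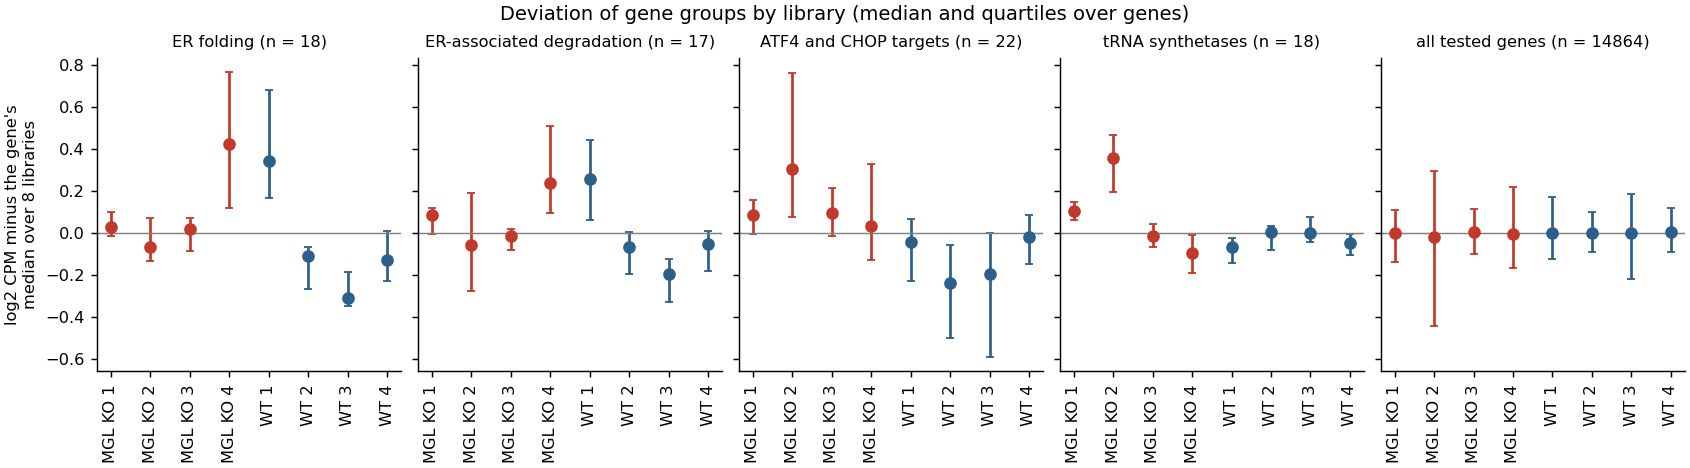
Deviation of gene groups in each library, as the median and quartiles over genes of log2 CPM minus the gene's own median over 8 libraries (y axis), for ER folding, ER-associated degradation, ATF4 and CHOP targets, aminoacyl-tRNA synthetases and all tested genes, MGL KO in red and WT in blue. The ER groups are highest in MGL KO 4 and WT 1 (0.42 and 0.34 for folding), the ATF4 groups in MGL KO 2 (0.31 and 0.36), and all tested genes center on 0 in each library.

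Of 23 further ATF4 and CHOP targets 22 were tested and 0 passed the adjusted quasi-likelihood test. In the exact test 1 passed and in DESeq2 1, beside 64 and 137 of 14864 tested genes. In the quasi-likelihood fit 19 of 22 fold changes were positive, the median was 0.40 and 8 had an unadjusted p under 0.05, all higher in MGL KO. The share with such a p was 36.4%, beside 4.35% of all tested genes. In 0 of these genes were WT 1 and MGL KO 4 the 2 highest libraries, as was also so in the tRNA synthetase, heat shock and immediate early lists. MGL KO 2 was the highest in 11 of the 22, against 27.4% of all tested genes. Atf3, a stress factor that is also an immediate early gene, was at 29.8, 22.6, 12.0 and 12.1 normalized CPM in MGL KO and at 8.65, 5.25, 5.85 and 7.89 in WT, with no overlap and a log2 fold change of 1.47 (SE 0.33, adjusted p = 0.319 by edgeR's quasi-likelihood test). Cebpb and Cebpg encode partners of ATF4 and also had no overlap, with log2 fold changes of 0.56 and 0.44. Gdf15, a secreted stress hormone, had a log2 fold change of 1.03 and was at 6.05 in MGL KO 2 and 1.63 or less elsewhere. Chac1, a glutathione-degrading target of ATF4 and CHOP, was at -0.12 and Psat1, a serine synthesis enzyme, at -0.06, so the direction was not shared by every target. Without MGL KO 2, 7 of 22 had an unadjusted p under 0.05 and the median was 0.32, where 5.31% of all tested genes had such a p with a higher level in MGL KO. Leaving out another library gave from 5 genes, without MGL KO 3, WT 1, WT 2 or WT 3, to 8. In those fits 2.56% to 4.95% of all tested genes had such a p with a higher level in MGL KO. The median of the list was lowest without MGL KO 4 (0.23) and WT 2 (0.26). The serine synthesis gene Phgdh (0.10) and the mitochondrial folate gene Shmt2 (-0.02) had small differences, whereas Mthfd2, of the same mitochondrial folate pathway, was at 0.85.

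The 18 cytosolic aminoacyl-tRNA synthetases, which load amino acids onto tRNA and are raised by ATF4, had 0 genes with an adjusted or an unadjusted p under 0.05. DESeq2, limma-voom and the fits with a skeletal muscle or a differentiated squamous covariate each gave 2 at the unadjusted level, all higher in MGL KO. In the same order, 4.81%, 5.44%, 6.33% and 4.73% of all tested genes had such a p with a higher level in MGL KO. Positive fold changes were found for 17 of 18, with a median of 0.12. MGL KO 2 was the highest library in 14, against 27.4% of all tested genes. Aars had the largest log2 fold change, 0.39, and Qars the lowest, -0.05. Without MGL KO 2 the positive fold changes numbered 11 and the median was 0.05, beside 7486 positive of 15102 tested genes and a median of -0.002.

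Cytosolic heat shock and immediate early genes were read beside the ATF4 arm. Of 11 cytosolic heat shock genes, 0 passed the adjusted quasi-likelihood test. In the exact test 2 passed and in DESeq2 3, beside 64 and 137 of 14864 tested genes. In the quasi-likelihood fit 7 had an unadjusted p under 0.05, all higher in MGL KO, with a median log2 fold change of 0.36. The share with such a p was 63.6%, beside 4.35% of all tested genes. MGL KO 2 was the highest library in 6 of the 11, against 27.4% of all tested genes. Without MGL KO 2 the median was 0.24 and 5 had such a p, beside 5.31% of all tested genes, higher in MGL KO. Leaving out MGL KO 1, WT 1 or WT 4 left 4, beside 4.24%, 3.51% and 2.86% of all tested genes. Hspa1a, the inducible cytosolic chaperone HSP70, was at 36.6, 22.8, 21.8 and 27.1 normalized CPM in MGL KO and at 11.5, 12.8, 17.6 and 11.5 in WT, with no overlap and a log2 fold change of 1.02 (SE 0.21, adjusted p = 0.280 by edgeR's quasi-likelihood test). Of 14 immediate early genes, which respond within minutes to handling and other stimuli, 8 had an unadjusted p under 0.05 (57.1%, beside 4.35% of all tested genes), all higher in MGL KO. The study had already reported Fos and Dusp1, both in this list, as higher in MGL KO from these libraries, so this share is a description and no independent support. The phosphatase gene Dusp1 passed the adjusted quasi-likelihood test narrowly, at an adjusted p of 0.0494, as 1 of 7 among 14864 tested genes. The list had 3 genes past the adjusted threshold with the exact test, 4 with DESeq2 and 2 with limma-voom, beside 64, 137 and 25 of 14864 tested genes. It had 0 with the robust fit, without the filter, with the replicate block and when any 1 library other than MGL KO 1 was left out. Without MGL KO 1, 5 genes had an unadjusted p under 0.05 (35.7%, beside 4.24% of all tested genes with a higher level in MGL KO). The summed level of the 14 genes was between 853 and 1397 normalized CPM in MGL KO and between 588 and 717 in WT. The part of these programs in the levels of Atf4, Asns, Atf3 and Ppp1r15a was not tested.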

How the data were processed

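RNA from 4 MGL KO and 4 WT mouse esophagi, frozen before extraction, was selected for poly(A) tails and sequenced on Illumina NovaSeq instruments. Per the submitters' processing notes and the study's methods, the authors checked reads with FastQC 0.11.9, trimmed adapters with cutadapt and aligned to GRCm39 with STAR 2.7.10b, and they deposited raw counts per gene symbol. The counting tool, annotation and use of strand were not given in the sources used here. The deposited counts were tested with edgeR 4.0.16 (R 4.3.3): filterByExpr at a minimum count of 10, TMM factors, the quasi-likelihood test and Benjamini-Hochberg adjustment over 14864 genes at 0.05. Log2 CPM used a prior count of 1. At this depth 3 counts equal between 0.167 and 0.271 normalized CPM, which covers counting error only. The alternatives were edgeR's exact test on the same filtered genes, DESeq2 1.42.0, limma-voom 3.58.1 with quality weights, other scalings and filters, covariates, a replicate block, and leaving libraries out. The tests were tested on simulated data. The exact permutation test used all 70 labelings. Positions are from GENCODE M39 on GRCm39, and promoters from RefSeq (GRCm38.p6 table).

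The members and lists were chosen with earlier results of these data known. Named are all members, the 2 genes with the largest and the 2 with the lowest log2 fold change of each pathway list, the 5 genes most like Hspa5 or Asns, Mgll, and markers of libraries that stood apart, of which 2 genes are not reported here. No 2 libraries of a group agreed within sampling noise, with a chi-square per degree of freedom of at least 13.6.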

Additional observations from a re-analysis of the deposited data

Results flagged for a closer look

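In a group of 4 libraries, a value was marked when its gap to the nearest library exceeded Dixon's 95% critical share of the group's range. Over 36 groups of values chance gives about 1.8 marks, and 10 were found. All but 1 came from the 3 libraries named as standing apart. WT 1 was marked for Xbp1 at 194 normalized CPM (next WT library 104), Pdia4 at 171 (next 57.4), Sdf2l1 at 35.6 (next 10.8) and the summed plasma cell markers at 5611 (next 176). MGL KO 4 was marked for Sdf2l1 at 29.6 (next MGL KO library 11.6), summed airway secretory markers at 11755 (next 91.9), summed airway ciliated markers at 1686 (next 912) and summed plasma cell markers at 1046 (next 242). The ciliated sum was between 816 and 912 in the remaining MGL KO libraries and between 420 and 735 in WT, so the groups did not overlap in it. MGL KO 2 was marked for Trib3 at 16.2 (next 2.69). The remaining mark was WT 3, whose summed basal squamous markers were low at 3975 (next 5499). Hspa5, Atf4, Ddit3, Asns, Herpud1 and Dnajb9 gave no mark in either group.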

How the results depend on the processing

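Each value was recomputed under 22 other settings, 3 of them chosen after seeing the data. No member had an adjusted p under 0.05 in any of the 22, though DESeq2 gave no p for Trib3. The log2 fold changes of Hspa5, Atf4, Asns, Herpud1 and Dnajb9 were positive in all 22. The genes called among all tested, 7 at first, numbered 64 with the exact test, 137 with DESeq2, 25 with limma-voom, 16 with the skeletal muscle covariate, 4 with the plasma cell covariate, and 2 with the robust fit, without the filter, without WT 1 and MGL KO 4, and without WT 1, MGL KO 4 and MGL KO 2, and from 2 to 5 when 1 library was left out. Members with an unadjusted p under 0.05, 2 at first, numbered 1 with limma-voom, 4 without the 3 libraries and 1 to 2 when 1 library was left out, where 5.44%, 3.36% and 2.56% to 5.31% of all genes had such a p and a higher level in MGL KO. They numbered 3, with Hspa5 added, with the skeletal muscle covariate (6.33% of all genes), with the plasma cell covariate (4.3%) and without WT 1 and MGL KO 4 (3.15%). All of these were higher in MGL KO. Members without overlap between groups, 1 at first, numbered 2 with library size alone (5.13% of all genes), 4 without WT 1 and MGL KO 4 (14.8%), 6 without the 3 libraries (24.3%) and 1 to 4 when 1 was left out, with 4 without WT 1 (9.27%). The median log2 fold change ranged from 0.10 to 0.53 when 1 library was left out, the latter without WT 1, beside 0.03 for all genes. Signs turned where 1 library decided them: leaving out 1 library gave -0.19 to 0.26 for Xbp1, -0.19 to 0.11 for Ddit3, -0.18 to 1.28 for Trib3, -0.36 to 0.58 for Pdia4 and -0.62 to 0.68 for Sdf2l1. Signs also turned with limma-voom (Xbp1 0.12, Ddit3 0.0015, Trib3 -0.083, Pdia4 0.12), with the skeletal muscle covariate (Pdia4 0.0084, Sdf2l1 0.0090), without WT 1 and MGL KO 4 (Xbp1 0.12, Ddit3 0.062, Pdia4 0.31, Sdf2l1 0.13) and without the 3 libraries (Xbp1 0.26, Trib3 -0.12, Pdia4 0.37, Sdf2l1 0.049). The cause of these turns was not tested.

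The replicate numbers gave no sign of pairing: deviations of same-numbered libraries correlated at -0.14, -0.28, -0.14 and 0.08 over 14864 genes. Whether the animals were paired was not given in the sources used here, and these correlations cannot settle it. With the replicate block 2 genes were called, no member was, Pdia4 was at 0.10 and Sdf2l1 at 0.065. Trib3 and Asns rested on few counts, 37 to 61 for Trib3 outside MGL KO 2 and 114 to 325 for Asns.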

Other observations

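Among the ER folding genes with a RefSeq promoter, the ERSE was found in 6 of 15 (Calr, Canx, Creld2, Ero1b, Hsp90b1 and Pdia6), against 37 of all 27025 genes, and in 0 of 21 ATF4 and CHOP targets and 0 of 11 tRNA synthetase genes. The CARE was found in 5 of these 11 synthetase genes (Aars, Gars, Iars, Tars and Yars) and 6 of 21 ATF4 and CHOP targets (Atf3, Chac1, Fgf21, Nupr1, Slc7a11 and Vldlr), against 1219 of all genes. It was also found in 2 of the 15 ER folding genes (Cnpy2 and Txndc5), so it was not limited to the ATF4 lists. Creld2, a secreted ER stress protein with an ERSE, was at 71.5 normalized CPM in WT 1, 50.5 in MGL KO 4 and between 15.6 and 24.9 in the other libraries. Hsp90b1, the ER chaperone GRP94 and also a carrier of the ERSE, was at 275 in WT 1, 248 in MGL KO 4 and between 117 and 148 in the others. These genes were named after their values were seen, and the matches are descriptions of letters. The motifs were already known for the 2 arms, so their shares in genes of the arms are not an independent observation.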
